A study of Homo sapiens with 16 samples.

Results

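The 9 genes described here encode the subunits of protein kinase A (PKA), the kinase activated by cyclic AMP (cAMP), and its small inhibitor proteins. They were taken by gene name from the 58721 genes of the deposited tables. The group was chosen by the counts of PRKACB, a catalytic subunit gene that was lower under both FOXA1 siRNAs in RT112 cells, so the RT112 values of PRKACB are given as a description without a test.

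The study sequenced 16 RNA libraries of 2 cultured lines derived from human bladder cancers. RT112 served as the luminal line and SCaBER as the basal line, and they were grown in RPMI and DMEM respectively, so line and medium cannot be told apart. Each line was transfected, for a short-term knock-down, with 10 nM (per the labels) of one siRNA against FOXA1, a forkhead transcription factor, or of one control siRNA. FOXA1 was targeted by 2 siRNAs, named siFOXA1.1 and siFOXA1.2. The controls siControl.1 and siControl.2 made up another pair. Every siRNA has 2 libraries in a line, labelled as experiment batch replicates 1 and 2. All libraries therefore come from transfected cells, and each line is a single cancer line. The labels do not say that the libraries came from separate cultures, so p-values measure the spread between these libraries, which may be partly technical. In each library the level is that of the whole culture, and fewer cells of a state and less RNA per cell cannot be told apart.

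PKA is held inactive as a tetramer of regulatory and catalytic subunits. When cAMP binds the regulatory subunits, the catalytic subunits are freed and phosphorylate many proteins, among them the transcription factor CREB. Type I and type II regulatory subunits set where the kinase sits, since type II subunits bind strongly to A-kinase anchoring proteins, and the PKI peptides block free catalytic subunits and carry them out of the nucleus.

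The libraries held 6622473 to 7604581 counts in RT112 and 4528513 to 6914951 in SCaBER. Levels are given as CPM, the count scaled to the library total, and 3 counts, the detection floor used here for counting error alone, correspond to 0.394 to 0.453 CPM in RT112 and 0.434 to 0.662 CPM in SCaBER. FOXA1 itself (ENSG00000129514) had 18.2 to 35.0 CPM in the RT112 control libraries, 1.32 and 3.24 CPM under siFOXA1.1 and 9.18 and 16.0 CPM under siFOXA1.2. The siFOXA1 mean was 26.8% of the control mean in RT112, with no overlap between 4 libraries and 4 (two-sided exact permutation p = 0.0286, the smallest that 4 against 4 can give). In edgeR the fall was called under siFOXA1.1 (log2 −3.44, adjusted p = 2.19e-05) and not under siFOXA1.2 (−1.099, adjusted p = 0.205, 45.3% of the control mean) or with the siRNAs pooled (adjusted p = 0.278). In SCaBER FOXA1 had 0 to 15 counts in all 8 libraries, which is at or near the floor, and the difference did not pass (two-sided exact permutation p = 0.114). Luminal markers summed to 1290 to 2604 CPM in RT112 and 525 to 1068 CPM in SCaBER, and basal markers to 417 to 802 CPM and 4220 to 6140 CPM respectively. The uroplakin UPK3A was at 0 in every library of both lines, and the leukocyte markers PTPRC and CD3E were at 0 in both. Mitochondrial transcripts took 25.7 to 28.2% of counts in RT112 under siFOXA1.1, against 18.0 to 21.2% under the other siRNAs in that line, and 10.3 to 12.1% in SCaBER. That share moved with siFOXA1.1 in RT112, and its part in the changes given below for that siRNA was not tested.

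Under siFOXA1.1 in RT112, the catalytic subunit PRKACA, the type II regulatory subunits PRKAR2A and PRKAR2B and the inhibitor PKIA fell, and PRKAR1A, a type I regulatory subunit, rose. Of the 8 genes other than PRKACB, 7 passed the low-count filter and 5 were called at an adjusted p under 0.05 by edgeR's quasi-likelihood test. The inhibitor PKIB was tested and did not pass (adjusted p = 0.482), and the inhibitor PKIG did not pass the filter. The count of 5 stands against 32.6% of all 11986 genes tested, since siFOXA1.1 changed a large part of the RT112 transcriptome. Under siFOXA1.2 none of the 8 was called, against 2.04% of all genes. In SCaBER 8 of the 9 genes passed the filter and 1, PRKACA, was called under siFOXA1.1 (9.26% of all 11902 genes tested) and none under siFOXA1.2 (0.042%). With edgeR and no adjustment, 1454 genes had p under 0.05 under siFOXA1.2 in RT112 and 634 in SCaBER. DESeq2 called 2 of the 8 genes under siFOXA1.2 in RT112 (PKIA, adjusted p = 0.0326, and PKIB, adjusted p = 0.0479) and 0 of 9 in SCaBER.

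**Figure D1:**
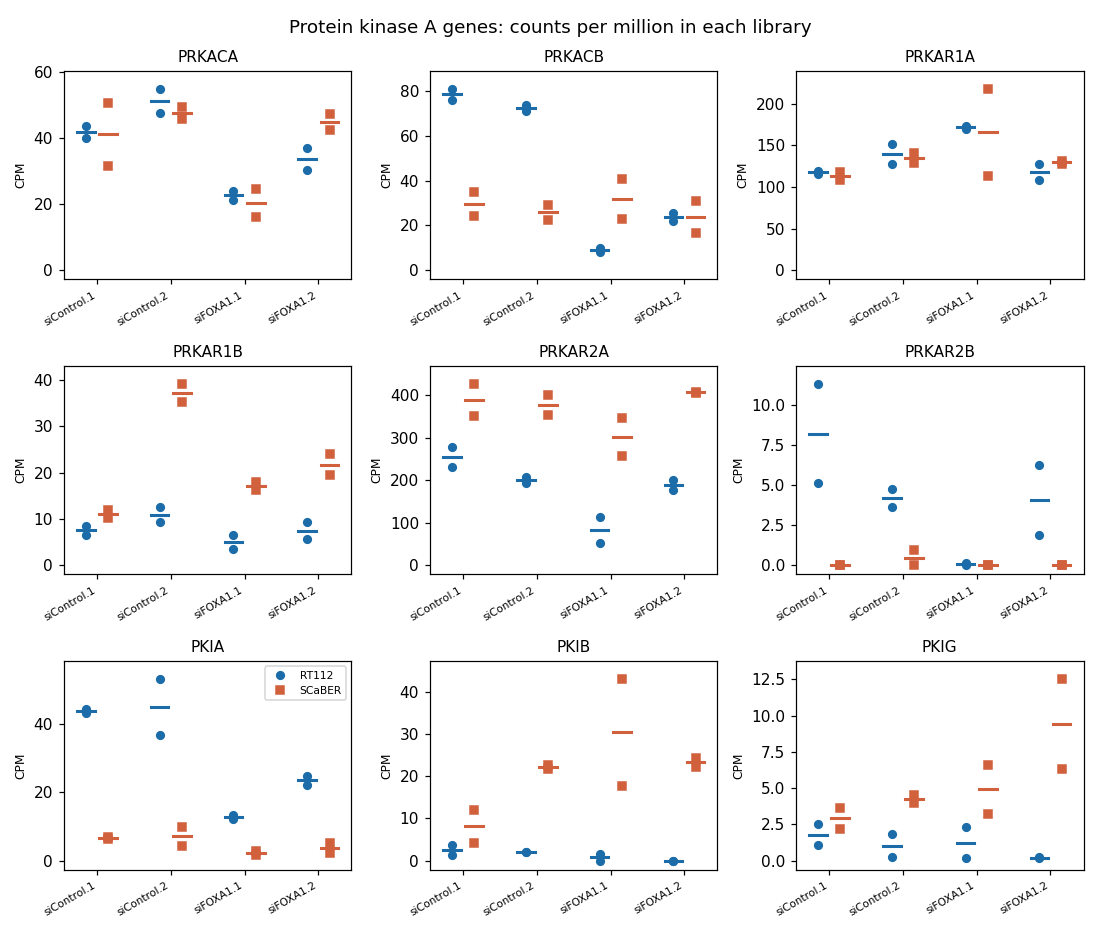
CPM of the 9 genes in each of the 16 libraries, by siRNA, with RT112 as circles, SCaBER as squares and the mean of each pair of libraries as a short line. PRKACB fell from 71.1 to 81.1 CPM in the RT112 controls to 8.20 and 9.87 CPM under siFOXA1.1, while the SCaBER groups overlapped.

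The catalytic subunits PRKACA and PRKACB carry the kinase activity, and PRKACB is transcribed from several start sites. PRKACB (ENSG00000142875, GRCh38.p14 chr1:84078079-84238498, plus strand) had 76.1 and 81.1 CPM under siControl.1 and 71.1 and 74.1 CPM under siControl.2 in RT112. It had 8.20 and 9.87 CPM under siFOXA1.1 and 25.5 and 21.9 CPM under siFOXA1.2. All 4 siFOXA1 libraries lay below all 4 controls, and the siFOXA1.1 libraries lay below the siFOXA1.2 libraries. The means were 12.0% and 31.3% of the control mean. The fitted log2 changes were −2.92 (SE 0.25) and −1.65 (SE 0.22), given as a description because these values chose the group. Within batch 1 and batch 2 the log2 difference was −3.03 and −2.80 under siFOXA1.1, and −1.50 and −1.79 under siFOXA1.2.

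In SCaBER, whose values did not choose the group, PRKACB had 24.3, 34.8, 29.4 and 22.5 CPM in the control libraries. It had 23.1 and 40.8 CPM under siFOXA1.1 and 16.5 and 31.1 CPM under siFOXA1.2. The groups overlapped under both siRNAs, and in each the batch 2 library was the higher one. The log2 change was 0.23 under siFOXA1.1 (95% interval −0.44 to 0.90, adjusted p = 0.764) and −0.20 under siFOXA1.2 (−0.89 to 0.48, adjusted p = 0.999). The difference between the lines was −3.18 on the log2 scale for siFOXA1.1 and −1.45 for siFOXA1.2, again as a description. That second difference was −1.83 without SCaBER siFOXA1.2 replicate 1 and −0.93 without replicate 2.

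PRKACA (ENSG00000072062, GRCh38.p14 chr19:14091688-14117762, minus strand) encodes the other widely used catalytic subunit. In RT112 it had 39.8, 43.6, 54.8 and 47.7 CPM in the controls, 24.0 and 21.4 CPM under siFOXA1.1, and 30.3 and 36.9 CPM under siFOXA1.2. All 4 siFOXA1 libraries lay below all 4 controls. It fell under siFOXA1.1 by 0.89 log2 units (SE 0.23, adjusted p = 0.00645). Under siFOXA1.2 the log2 change was −0.44 (SE 0.23, adjusted p = 0.462), and the difference between the siRNAs did not pass (−0.45, adjusted p = 0.221).

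PRKACA was also the gene called in SCaBER, where it had 50.6, 31.6, 49.3 and 45.7 CPM in the controls and 24.6 and 16.1 CPM under siFOXA1.1. Both siFOXA1.1 libraries lay below all controls. Under siFOXA1.2 it had 42.3 and 47.4 CPM, within the control range. The fall under siFOXA1.1 was 1.09 log2 units (SE 0.31, adjusted p = 0.0410), a call that was lost when any one of 6 libraries was left out, with adjusted p up to 0.216 without siFOXA1.1 replicate 2. The contrast of siFOXA1.1 with siFOXA1.2 was −1.12 (adjusted p = 0.0819), and with the batch number as a block it was −1.17 (adjusted p = 0.0407). The fall did not differ detectably between the lines (difference 0.18, 95% interval −0.56 to 0.92, adjusted p = 0.933).

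Promoter windows of these genes are shown because FOXA1 is a forkhead factor and PRKACB has starts of very different base composition. RefSeq windows of 250 bases before each start (GRCh38.p14) were found for 8 of the 9 genes, 25 windows in all; PKIA was not matched. The forkhead letters TGTTTAC or TGTTTGC were searched on both strands, and the cAMP response element (CRE) as TGACGTCA and as its shorter core TGACG, which overlaps the full element on both strands. The forkhead letters occurred in 1 of the 25 windows, against 6.09% of 35116 windows of all genes. That window belongs to the PRKACB start at the second position in the gene, chr1:84144021-84144270, where TGTTTGC lies on the minus strand beginning 18 bases before the start. TGACG was in 7 windows, against 21.2% of all windows, and the full CRE was in 1, at PRKAR1A, against 1.65%. Windows are written 5′ to 3′ on the gene's strand with matched letters in capitals. The first is PRKACB at its upstream start (chr1:84077829-84078078, plus strand, 80.8% G and C, TGACG on the minus strand). The second is the AT-rich inner PRKACB start (30.8% G and C) with the forkhead letters. The third is PRKACA (chr19:14117763-14118012, minus strand, TGACG on the opposite strand), and the fourth is PRKAR2A (chr3:48847875-48848124, minus strand), which held none of these letters.
PRKACB upstream start: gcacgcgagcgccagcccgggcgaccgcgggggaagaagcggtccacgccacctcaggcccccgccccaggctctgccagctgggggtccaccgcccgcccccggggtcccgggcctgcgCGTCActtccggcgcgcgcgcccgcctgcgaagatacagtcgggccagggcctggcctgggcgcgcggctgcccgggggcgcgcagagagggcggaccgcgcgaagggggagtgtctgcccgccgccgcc
PRKACB inner start: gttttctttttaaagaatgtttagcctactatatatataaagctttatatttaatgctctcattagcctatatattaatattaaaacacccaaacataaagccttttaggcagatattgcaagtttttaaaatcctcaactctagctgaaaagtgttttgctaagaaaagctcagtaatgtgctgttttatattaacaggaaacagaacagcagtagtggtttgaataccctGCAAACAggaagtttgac
PRKACA: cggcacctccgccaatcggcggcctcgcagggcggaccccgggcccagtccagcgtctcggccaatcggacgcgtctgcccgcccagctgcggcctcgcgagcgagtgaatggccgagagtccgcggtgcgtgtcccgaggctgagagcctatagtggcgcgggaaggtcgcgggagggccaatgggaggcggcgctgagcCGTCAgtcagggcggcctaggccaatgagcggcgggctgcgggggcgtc
PRKAR2A: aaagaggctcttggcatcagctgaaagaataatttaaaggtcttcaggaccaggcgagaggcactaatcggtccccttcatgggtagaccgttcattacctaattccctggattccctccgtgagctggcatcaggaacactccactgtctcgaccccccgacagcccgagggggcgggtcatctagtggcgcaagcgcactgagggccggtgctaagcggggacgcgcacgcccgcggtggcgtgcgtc
The letters are a description of these windows and not of binding, and the 3′ libraries do not show which PRKACB start was used.

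Among type I regulatory subunits, PRKAR1A (ENSG00000108946) is the broadly expressed one. In RT112 it had 116, 120, 151 and 128 CPM in the controls, 174 and 170 CPM under siFOXA1.1, and 109 and 128 CPM under siFOXA1.2. Both siFOXA1.1 libraries lay above all controls, and the siFOXA1.2 libraries overlapped them. It rose under siFOXA1.1 by 0.56 log2 units (SE 0.13, adjusted p = 0.00364) and was higher than under siFOXA1.2 by 0.65 (SE 0.16, adjusted p = 0.00469). On the TPM scale (corrected for gene length, with the same total in each library), where the median of all genes was shifted by −0.29, limma gave 0.23 (adjusted p = 0.250) against the controls and 0.35 (adjusted p = 0.149) against siFOXA1.2, and neither passed. The call against the controls was kept in the other 13 alternatives, edgeR with library totals among them. The contrast with siFOXA1.2 was also lost without RT112 siFOXA1.2 replicate 1 (0.54, adjusted p = 0.0728). In SCaBER PRKAR1A had 109 to 141 CPM in the controls and 113 and 218 CPM under siFOXA1.1, a spread between batches wider than the control range (log2 change 0.44, adjusted p = 0.253). Without the lower of those libraries, replicate 1, the change was 0.81 (adjusted p = 0.0124).

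PRKAR1B (ENSG00000188191), the type I subunit best known from neurons, had 6.64 to 12.5 CPM in the RT112 controls, 3.51 and 6.48 CPM under siFOXA1.1 and 5.68 and 9.29 CPM under siFOXA1.2. In CPM both siFOXA1.1 libraries lay below the lowest control, replicate 1 clearly and replicate 2 narrowly, and the siFOXA1.2 pair reached into the control range. With the library scaling of the edgeR fit, siFOXA1.1 replicate 2 (log2 CPM 2.86) lay above the lowest control (2.80), so these groups overlapped. Neither change passed in edgeR (log2 −0.72, adjusted p = 0.333, and −0.26, adjusted p = 0.925). In SCaBER the 2 control siRNAs gave separate levels, 10.3 and 11.8 CPM under siControl.1 and 35.2 and 39.1 CPM under siControl.2. The siFOXA1 libraries, at 16.3 to 23.9 CPM, lay between them. The difference between the controls was −1.76 on the log2 scale (adjusted p = 0.114 in edgeR and 0.00388 in DESeq2), so for this gene the control siRNAs were further apart than either FOXA1 siRNA was from their mean.

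The type II subunit PRKAR2A (ENSG00000114302) had the highest TPM of the 9 genes in the controls of both lines. Under siFOXA1.1 in RT112 it was below PRKAR1A, with 30.3 and 13.5 TPM against 45.1 and 41.6 TPM. In RT112 it had 231, 279, 207 and 193 CPM in the controls, 113 and 53.6 CPM under siFOXA1.1, and 200 and 178 CPM under siFOXA1.2. Both siFOXA1.1 libraries lay below all others. The fall under siFOXA1.1 was 1.31 log2 units (SE 0.21, adjusted p = 8.60e-05), larger than under siFOXA1.2 by 1.07 (SE 0.23, adjusted p = 0.00172). The siFOXA1.2 change itself was −0.24 (adjusted p = 0.725). In SCaBER PRKAR2A had 351 to 426 CPM in the controls, 346 and 258 CPM under siFOXA1.1, and 405 and 407 CPM under siFOXA1.2. The log2 changes there were −0.30 (adjusted p = 0.368) and 0.11 (adjusted p = 0.999). The difference between the lines in the siFOXA1.1 change was −1.02 (SE 0.30, adjusted p = 0.0763), and −1.05 with the batch block (adjusted p = 0.0492). Within RT112 the log2 difference from the controls under siFOXA1.1 was −0.85 in batch 1 and −1.96 in batch 2.

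PRKAR2B (ENSG00000005249), a type II subunit prominent in brain and fat, was low in RT112 and had no more than 6 counts in any SCaBER library. The RT112 controls had 11.3, 5.13, 4.79 and 3.61 CPM, siFOXA1.1 had 0 and 0.147 CPM (0 and 1 counts), and siFOXA1.2 had 1.89 and 6.28 CPM. Both siFOXA1.1 libraries were under the floor, while the siFOXA1.2 pair straddled the lowest control. The summed count ratio of siFOXA1.1 to controls was 1.17% (95% exact interval 0.0294 to 6.59%, counting error only), and edgeR called the fall (adjusted p = 0.00223). The contrast with siFOXA1.2 was also called (adjusted p = 0.00696, and 0.0700 without RT112 siFOXA1.2 replicate 2). In SCaBER 7 of 8 libraries had 0 counts, which allows up to 0.434 to 0.662 CPM, and siControl.2 replicate 1 had 6 counts, so a change there was not detectable at this depth.

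**Figure D2:**
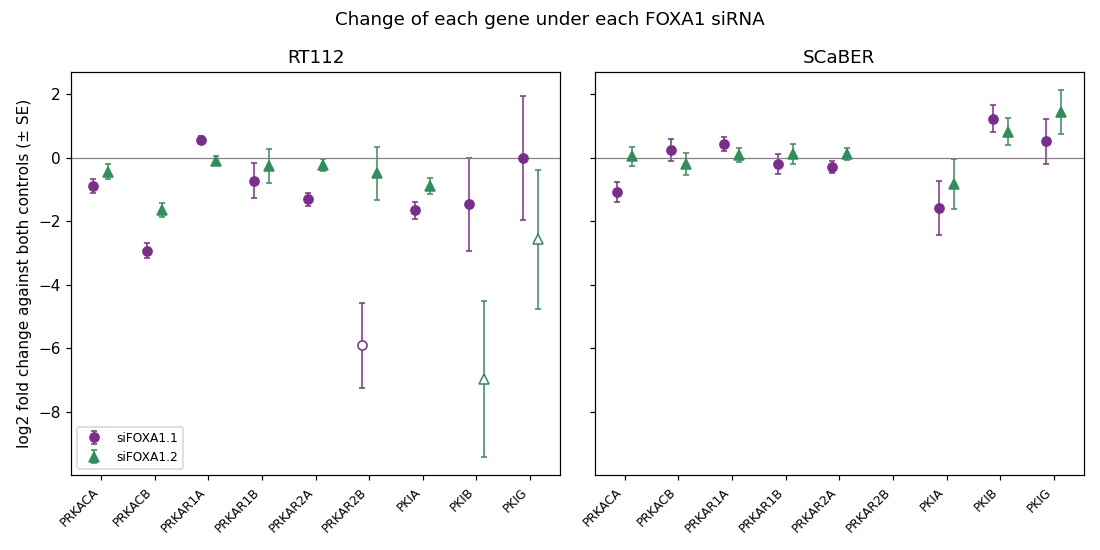
Fitted log2 fold changes (± SE) of the 9 genes under siFOXA1.1 (circles) and siFOXA1.2 (triangles) against both controls, in RT112 and SCaBER. Open symbols mark siRNA groups with at most 3 counts in each library, whose fitted size depends on the prior count, and PRKAR2B is left out in SCaBER. PRKACB stood at −2.92 and −1.65 in RT112 and at 0.23 and −0.20 in SCaBER.

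PKIA (ENSG00000171033), the inhibitor best characterised in muscle and brain, was the main inhibitor transcript of RT112. It had 44.3, 43.2, 53.1 and 36.8 CPM in the RT112 controls, 12.2 and 13.4 CPM under siFOXA1.1, and 24.6 and 22.3 CPM under siFOXA1.2. All 4 siFOXA1 libraries lay below all controls, with siFOXA1.1 the lowest, which is the order that PRKACB had. The fall under siFOXA1.1 was 1.66 log2 units (SE 0.27, adjusted p = 0.000134). Under siFOXA1.2 the change was −0.90 (SE 0.26, adjusted p = 0.0916), and it passed in DESeq2 and when either siFOXA1.1 library was left out (adjusted p = 0.0447 and 0.0439). In SCaBER PKIA had 4.38 to 9.94 CPM in the controls, 2.84 and 1.59 CPM under siFOXA1.1, and 2.31 and 5.23 CPM under siFOXA1.2. The log2 changes of −1.58 (adjusted p = 0.286) and −0.83 (adjusted p = 0.999) did not pass at these low counts. The changes did not differ detectably between the lines (−0.08, 95% interval −1.39 to 1.23, for siFOXA1.1, and −0.07, −1.24 to 1.101, for siFOXA1.2).

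PKIB (ENSG00000135549), a second inhibitor, was low in RT112. There it had 1.21 to 3.68 CPM in the controls, 1.46 and 0 CPM under siFOXA1.1 and 0 in both libraries under siFOXA1.2. Summed over libraries, siFOXA1.2 was at least 5.39-fold lower than the controls, against a floor of 3 counts in each library of the pair, and the edgeR call did not pass (adjusted p = 0.199). In SCaBER PKIB had 12.0 and 4.21 CPM under siControl.1 and 22.6 and 21.6 CPM under siControl.2. It had 43.0 and 17.8 CPM under siFOXA1.1, and 22.2 and 24.4 CPM under siFOXA1.2. The difference between the control siRNAs was −1.46 on the log2 scale (edgeR adjusted p = 0.617). The groups overlapped under both siRNAs, with siFOXA1.1 replicate 1 the highest library. The log2 changes were 1.22 (SE 0.43, adjusted p = 0.0945) and 0.82 (SE 0.43, adjusted p = 0.998). The siFOXA1.1 change passed with no filter (edgeR adjusted p = 0.0202). It was 1.70 without siControl.1 replicate 1, which leaves the lowest control library alone for its siRNA. Without siFOXA1.1 replicate 2, the lower library of that pair, it was 1.75. Over all alternatives the change ranged from 0.41 to 1.75, so its size depended on single libraries. The line difference under siFOXA1.2 rests on a group at 0, and it did not pass in edgeR (adjusted p = 0.236) but passed in DESeq2 (adjusted p = 0.0170).

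PKIG (ENSG00000168734), the most widely expressed inhibitor in other tissues, had 0.266 to 2.50 CPM in the RT112 controls, 2.34 and 0.147 CPM under siFOXA1.1 and 0.146 and 0.273 CPM under siFOXA1.2. It did not pass the low-count filter in RT112. In SCaBER it had 2.18 to 4.54 CPM in the controls, 6.63 and 3.18 CPM under siFOXA1.1, and 6.32 and 12.5 CPM under siFOXA1.2. Both siFOXA1.2 libraries lay above all controls, but the log2 change of 1.43 (SE 0.69, adjusted p = 0.966) did not pass.

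When the FOXA1 siRNAs were pooled, 4 libraries against 4, none of the 8 genes other than PRKACB was called in RT112 (0.108% of all genes; PKIA log2 −1.23, SE 0.27, adjusted p = 0.170) and none of 9 in SCaBER (0.0084%). Without adjustment, edgeR gave 1454 genes with p under 0.05 in RT112 and 1059 in SCaBER. DESeq2 called PKIA in RT112 (adjusted p = 0.00485) and 0 genes of the 9 in SCaBER. By overlap, PRKACA and PKIA, among the 8 genes other than PRKACB, were lower in every RT112 siFOXA1 library than in every control. Over all genes 7.95% had separate groups in either direction. PRKACB was separate too, but its fall chose the group, so it is not set against that share. Each group of 4 libraries mixes siRNAs, so the overlap is given as a description. In SCaBER 0 of 9 were separate (5.28%).

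The siRNAs were also set against each other. In RT112, 3 of the 8 genes differed between siFOXA1.1 and siFOXA1.2, against 28.1% of all genes, and these were PRKAR1A (higher under siFOXA1.1), PRKAR2A and PRKAR2B (lower). Which genes were called moved with the method, since PKIA (lower under siFOXA1.1) also passed with library totals (adjusted p = 0.0354) and in limma on TPM (adjusted p = 0.0219), where PRKAR1A did not. FOXA1 itself was lower under siFOXA1.1 than under siFOXA1.2 by 2.34 log2 units (SE 0.50, adjusted p = 0.00181). Neither line had a called gene between its control siRNAs (2.36% of all genes in RT112 and 0.0672% in SCaBER; 1577 and 790 genes at unadjusted p under 0.05), although DESeq2 called PRKAR1B in SCaBER, as given above. In SCaBER none was called between siFOXA1.1 and siFOXA1.2 in edgeR (4.85% of all genes; 2170 at unadjusted p under 0.05), and DESeq2 called PRKACA (adjusted p = 0.0438).

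The change itself was compared between the lines in a fit of all 16 libraries. None of the 8 genes other than PRKACB was called for siFOXA1.1 (3.14% of all 13701 genes) or for siFOXA1.2 (0.0438%), with 2222 and 829 genes at unadjusted p under 0.05 in edgeR. DESeq2 called 1 gene for each siRNA, PRKAR2A (adjusted p = 0.0250) and PKIB (adjusted p = 0.0170). Without RT112 siFOXA1.1 replicate 1 the siFOXA1.1 difference of PRKAR2A was −1.63 (adjusted p = 0.00505), and without SCaBER siFOXA1.1 replicate 2 it was −1.25 (adjusted p = 0.0206).

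The 2 lines differed in these genes without FOXA1 siRNA. In the control libraries 5 of the 8 genes other than PRKACB were called between RT112 and SCaBER, against 43.4% of all 12309 genes tested. RT112 was higher in PKIA by 2.72 log2 units (SE 0.28, adjusted p = 1.88e-06) and in PRKAR2B (adjusted p = 0.00240, SCaBER at the floor). RT112 was lower in PKIB by 2.72 (SE 0.56, adjusted p = 0.000991), in PRKAR2A by 0.73 (SE 0.15, adjusted p = 0.000887) and in PRKAR1B by 1.37 (SE 0.43, adjusted p = 0.0176). The PRKAR1B call rested on siControl.2 in SCaBER and was lost without either of its libraries (adjusted p = 0.0647 and 0.0793). PRKACA (0.08) and PRKAR1A (0.06) were at similar levels, with 95% intervals of −0.32 to 0.47 and −0.22 to 0.34. PKIG was 1.32 lower (adjusted p = 0.165), and limma on TPM called it (adjusted p = 0.00746). PRKACB was 1.46 higher in RT112, as a description.

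On the TPM scale, which divides by gene length, the order of levels under control siRNAs in RT112 was PRKAR2A (66.9 ± 9.13 TPM, SD, n = 4), PRKAR1A (37.1 ± 5.81), PRKACB (22.0 ± 0.631), PKIA (20.6 ± 3.49), PRKACA (14.9 ± 2.55), PRKAR1B (4.06 ± 1.199), PRKAR2B (2.80 ± 1.49), PKIB (1.28 ± 0.569) and PKIG (1.095 ± 0.740). Neighbours from PRKACB to PRKACA overlapped in range, as did neighbours from PRKAR1B to PKIG. In SCaBER the order was PRKAR2A (147 ± 12.2 TPM, n = 4), PRKAR1A (46.6 ± 5.26), PRKACA (18.4 ± 3.20), PRKAR1B (13.7 ± 8.57), PKIB (11.2 ± 6.41), PRKACB (10.6 ± 2.33), PKIA (4.16 ± 1.42), PKIG (3.67 ± 0.972) and PRKAR2B (0.143 ± 0.285). Neighbours from PRKACA to PRKACB overlapped, and so did PKIA and PKIG. PRKAR2A and PRKAR1A led in both lines, whereas PRKACB stood above PRKACA in every RT112 control library. Because the libraries read 3′ ends, division by gene length lowers long genes, and the TPM order carries that scaling. Part of the order therefore depends on the scale. By mean CPM in the SCaBER controls, PRKACB (27.7) stood above PRKAR1B (24.1) and PKIB (15.1). By mean CPM in the RT112 controls, PRKACA (46.5) stood above PKIA (44.4). The rest of the order was the same in CPM.

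**Figure D3:**
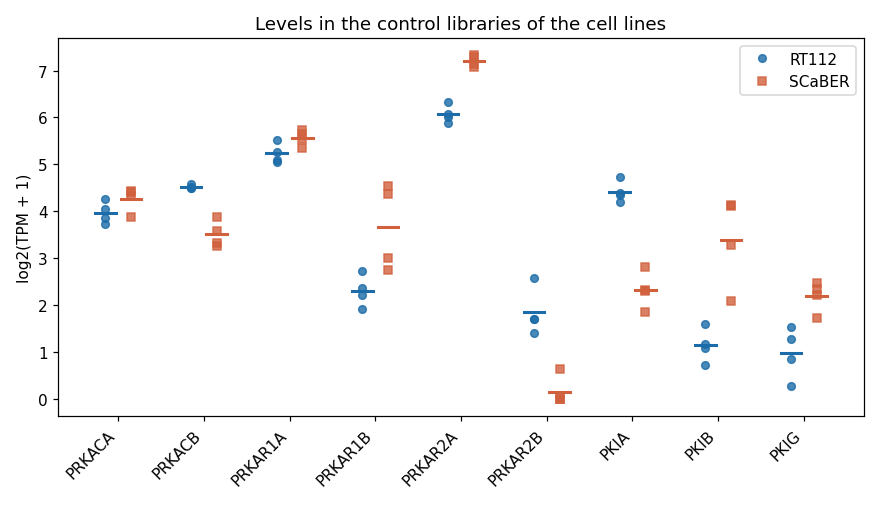
Levels of the 9 genes as log2(TPM + 1) in the 4 control libraries of RT112 (circles) and of SCaBER (squares), with the mean as a short line. PKIA was higher in RT112 and PKIB in SCaBER, and PRKACA and PRKAR1A lay at similar levels in both lines.

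The make-up of the group also differed when TPM values were summed by role, and these sums carry the same scaling by gene length. Catalytic transcripts summed to 33.9 to 39.6 TPM in the RT112 controls, 8.25 and 9.08 TPM under siFOXA1.1 and 17.0 and 18.0 TPM under siFOXA1.2. PRKACB was 59.8% ± 4.35 (SD, n = 4) of the catalytic sum in the controls, 26.7% (n = 2) under siFOXA1.1 and 39.3% (n = 2) under siFOXA1.2. The catalytic sums and these shares follow in part from the PRKACB values that chose the group. So does the ratio given next, which has the catalytic sum as its denominator. The regulatory TPM sum per catalytic TPM sum went from 3.01 ± 0.243 (SD, n = 4) in the controls to 7.71 and 5.39 in the respective pairs. The SCaBER controls had 7.19 ± 0.662 (SD, n = 4).

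The type I share of the regulatory sum, which does not involve PRKACB, was 33.6, 30.6, 43.6 and 41.1% in the RT112 controls. It was 60.6 and 76.5% under siFOXA1.1 and 36.0 and 42.4% under siFOXA1.2. Both siFOXA1.1 libraries lay above all others, and the siFOXA1.2 pair lay within the controls. The difference from controls was 31.3 percentage points for siFOXA1.1 (two-sided exact permutation p = 0.133 with n = 2 against 4, where no p under 0.05 is possible because 15 splits exist) and 1.99 for siFOXA1.2 (exact permutation p = 0.667). In SCaBER the share was 22.2 to 34.9% in the controls, 28.4 and 47.8% under siFOXA1.1 and 28.8 and 27.3% under siFOXA1.2, which overlapped the controls (exact permutation p = 0.400 and 0.800). The 4 tests are one family, and none passed before adjustment. PKIA made up 83.5 to 94.5% of the inhibitor sum in the RT112 controls and 11.0 to 41.3% in the SCaBER controls, without overlap.

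**Figure D4:**
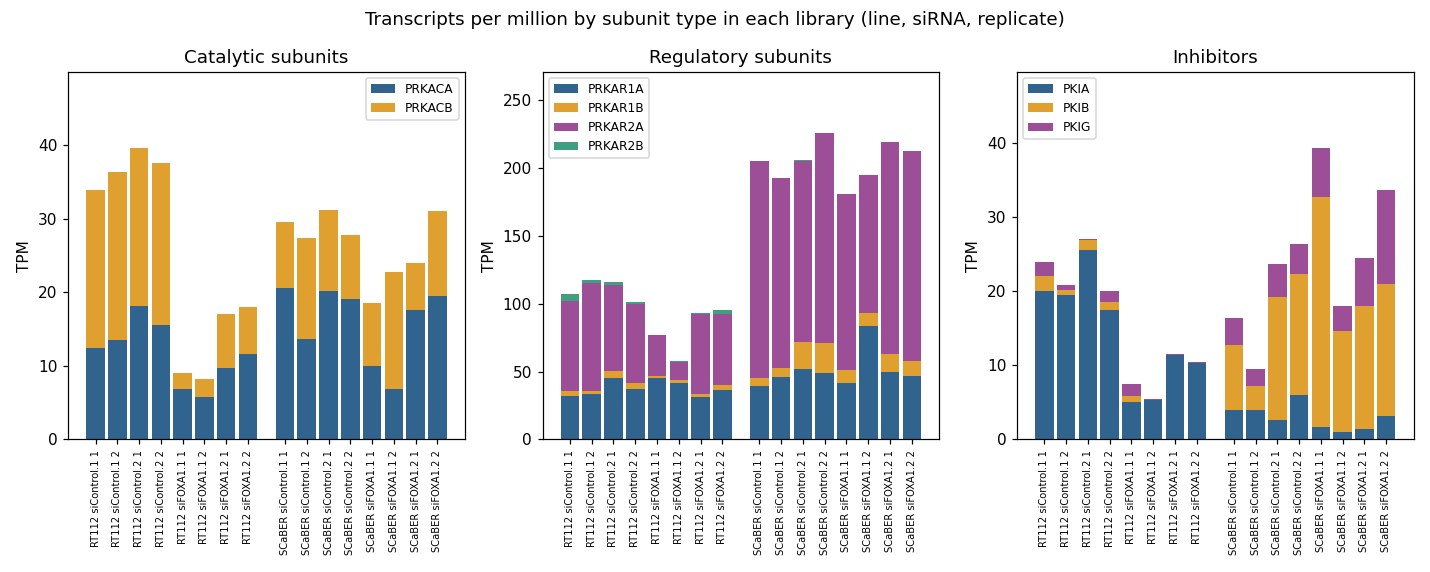
TPM of the catalytic subunits, the regulatory subunits and the inhibitors, stacked by gene, in each of the 16 libraries. The catalytic sum includes the PRKACB values that chose the group. The catalytic sum of RT112 drops from 33.9 to 39.6 TPM in the controls to 8.25 and 9.08 TPM under siFOXA1.1, and PKIB makes up most of the inhibitor sum in most SCaBER libraries.

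Genes that make, break down, anchor or answer to cAMP were taken from 6 lists of 89 genes, of which 49 (RT112) and 46 (SCaBER) passed the filter. The lists too were chosen with earlier results of these data known. Under siFOXA1.1 in RT112, 19 of the 49 were called, 10 higher and 9 lower (38.8%, beside 32.6% of all genes), with a median log2 change of 0.06 beside −0.01 over all genes. Under siFOXA1.2, 1 was called (2.04%, beside 2.04% of all genes). The RT112 control siRNAs set against each other also gave 1 of 49 (2.04%, beside 2.36% of all genes). In SCaBER 4 of 46 were called under siFOXA1.1 (8.70%, beside 9.26%) and 0 under siFOXA1.2 (0.042%), where no filter gave 1. These shares are near those of all genes.

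Under siFOXA1.1 in RT112, 4 of 9 tested genes for cAMP synthesis and G proteins were called, 2 in each direction. Over all genes tested in this comparison 32.6% were called, 15.6% higher and 17.0% lower, and nothing particular to these short lists is read from their counts. The adenylyl cyclase ADCY3 had 22.5 to 37.7 CPM in the controls and 1.32 and 3.09 CPM under siFOXA1.1 (log2 −3.54, SE 0.43, adjusted p = 5.77e-06), and 27.5 and 25.4 CPM under siFOXA1.2. Of 4 phosphodiesterases, which degrade cAMP, 2 were lower and none higher. Of 11 A-kinase anchoring proteins, 4 were higher and none lower. None of 9 CREB factors and coactivators was called, and 1 of 2 other cAMP-binding proteins and related kinases was lower. That gene was PRKX, a PKA-like kinase, at −1.51 (SE 0.27, adjusted p = 0.000279), whose reads may be shared with a near-identical copy. PRKX had 11.0 and 10.0 CPM under siFOXA1.1, 26.7 and 22.8 CPM under siControl.1, and 44.3 and 43.2 CPM under siControl.2. The difference between the control siRNAs was −0.76 (edgeR adjusted p = 0.214). Under siFOXA1.2 it had 35.4 and 38.8 CPM (log2 0.19, edgeR adjusted p = 0.854).

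CREB target genes moved in both directions, with 4 of 14 higher and 4 lower, beside 15.6% higher and 17.0% lower over all genes. The members with the largest changes were ID1 and ID2, inhibitors of helix-loop-helix factors, and FOSB and FOS, subunits of AP-1. ID1 had 388 to 575 CPM in the RT112 controls, 35.4 and 15.6 CPM under siFOXA1.1, and 470 and 466 CPM under siFOXA1.2. It fell under siFOXA1.1 by 4.20 log2 units (SE 0.24, adjusted p = 5.02e-10), and ID2 fell by 2.73 (SE 0.33, adjusted p = 6.00e-06). FOS fell by 2.41 (SE 0.43, adjusted p = 0.000259), while FOSB rose by 2.88 (SE 0.77, adjusted p = 0.00760). Under siFOXA1.2 none of these 4 was called. The gene called there was EZR, encoding the anchoring protein ezrin, which had 522 to 627 CPM in the controls and 331 and 368 CPM under siFOXA1.2 (log2 −0.70, SE 0.10, adjusted p = 0.000844).

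In SCaBER under siFOXA1.1, ID1 had 91.4 to 147 CPM in the controls and 8.33 and 19.7 CPM under the siRNA (log2 −3.06, SE 0.35, adjusted p = 0.000102). The other called genes were GNAI2, an inhibitory G protein subunit (−0.86, SE 0.18, adjusted p = 0.00755), IRS2, an insulin receptor substrate (−1.30, SE 0.39, adjusted p = 0.0485), and the stress-responsive factor ATF3 (1.196, SE 0.31, adjusted p = 0.0248). ATF3 had 18.5 to 52.7 CPM in the controls and 44.3 and 86.8 CPM under siFOXA1.1, so its groups overlapped. All 4 genes were called in RT112 under siFOXA1.1 too, in the same direction.

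**Figure D5:**
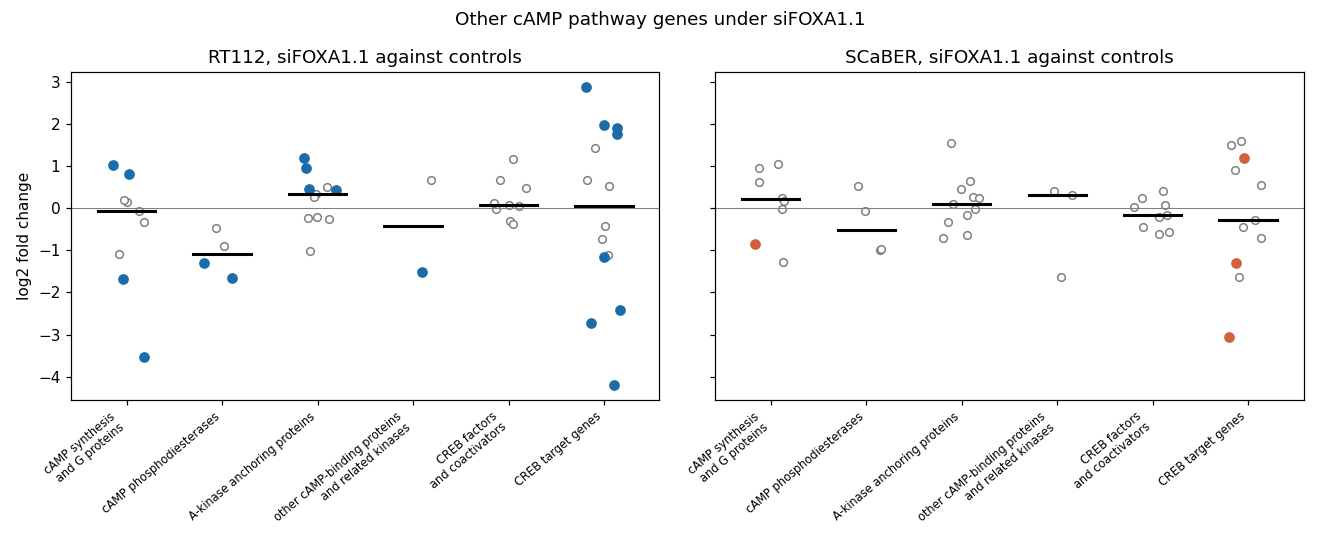
Log2 fold changes of the tested genes of the 6 cAMP pathway lists under siFOXA1.1 against controls, in RT112 and SCaBER. Filled points have an adjusted p under 0.05 in edgeR, open points do not, and the black line is the list's median; 19 of 49 points are filled in RT112 and 4 of 46 in SCaBER.

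Genes whose pattern over the 8 RT112 libraries was most like that of PRKACB were named by Pearson's r of log2 CPM, with no test, since these libraries share siRNAs and depth. The most similar were AL133477.1 (r = 0.991), the pseudogene AADACP1 (0.990), PABPC4 (0.989), a poly(A)-binding protein, PATL2 (0.982) and SIVA1 (0.981). The most opposite were AKAP10, an anchoring protein of PKA (−0.993), CALU (−0.989) and SPTLC2 (−0.982). AKAP10 had 21.2 to 22.2 CPM in the controls, 40.6 and 36.8 CPM under siFOXA1.1 and 29.6 and 30.7 CPM under siFOXA1.2. Its order across siRNAs was the reverse of that of PRKACB. AADACP1 had 0 counts in every SCaBER library, so no r can be given for it there. Over the 8 SCaBER libraries the r of the other named genes with PRKACB ranged from −0.577 (AL133477.1) to 0.501 (PATL2). Those genes at the ends had at most 30 and 25 counts in a SCaBER library, and 0 CPM under siFOXA1.1 in RT112. Within the group, r with PRKACB in RT112 was 0.978 for PKIA and 0.914 for PRKACA, and in SCaBER −0.140 and −0.533. Among the other members it ran from 0.853 (PRKAR2B) to −0.691 (PRKAR1A) in RT112. In SCaBER it ran from −0.734 (PRKAR2A) to 0.491 (PRKAR1A) among them.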

How the data were processed

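Libraries of RT112 and SCaBER cells were made with a 3′ mRNA kit (Lexogen QuantSeq FWD) and counted per gene. Per the deposited configuration, the authors trimmed reads with TrimGalore 0.6.2, aligned them with STAR 2.6.1a to hg38 and counted on GENCODE 29, while the study's methods name hg19 and 10 ng of siRNA instead of the label's 10 nM. The authors deposited raw counts and TPM values (length-corrected levels with a fixed total) per gene. CPM was computed here from the counts.

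Counts were fitted in R 4.3.3 with edgeR 4.0.16 (TMM, filterByExpr, quasi-likelihood F test, Benjamini-Hochberg over all genes tested, threshold 0.05), within each line with 1 mean per siRNA, on the 8 control libraries, and on all 16 libraries for the line differences. A gene that failed the filter took its values from the fit without it. Intervals are 1.96 SE. FOXA1 CPM and shares were compared with two-sided exact permutation tests. Fits were tested on simulated data. The alternatives were RLE factors, library totals, no filter, a replicate block, DESeq2 1.42.0, limma 3.58.1 on log2(TPM + 1), and leaving out each library.

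The 9 genes, the 6 lists and the marker lists were chosen with earlier results of these data known. All 9 genes and FOXA1 were named, then up to 5 called list genes with the largest absolute log2 change per siRNA and line, and the 5 and 3 genes most and least like PRKACB; GNAI2 in SCaBER falls under this rule and PRKX was added after its value was seen. The batch numbers of the labels pair the samples; deviations of same-numbered libraries correlated at −0.0184 to 0.0137 in RT112 and 0.0187 to 0.200 in SCaBER. Library totals were 4528513 to 7604581 counts. Floors and the exact intervals of count ratios cover counting error only. The intervals of log2 changes come from the SE of the fit, which includes the spread between libraries. Fibroblast markers summed to 84.6 to 146 CPM in RT112 and 10.0 to 45.1 CPM in SCaBER. COL3A1 and DCN were at 0 in both lines, while LUM had 48.9 to 137 CPM in RT112 and 4.86 to 28.2 CPM in SCaBER. COL1A1 had 7.50 to 56.5 CPM and 1.54 to 20.4 CPM in the respective lines. Leukocyte markers summed to at most 3.22 CPM and endothelial markers to at most 11.2 CPM.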

Additional observations from a re-analysis of the deposited data

Results flagged for a closer look

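In 3 of 36 groups of 4 libraries listed for the 9 genes, 1 library stood apart from the others by Dixon's gap ratio. PRKAR2B under siFOXA1 in SCaBER, with 0 counts in each library, could not be scored. Chance alone sets apart about 1 in 20 groups of normally distributed values, and here each group mixes 2 siRNAs. Among the RT112 siFOXA1 libraries, siFOXA1.1 replicate 1 had 1.46 CPM of PKIB, with 0 in the other libraries. The same library had 2.34 CPM of PKIG, with 0.146 to 0.273 CPM in the others. Among the SCaBER control libraries, siControl.2 replicate 1 had 0.974 CPM of PRKAR2B, with 0 in the others. All 3 concern genes near the floor of 3 counts. For PKIB and PRKAR2B the other libraries were all at 0, which sets the ratio to 1 whatever the size of the gap.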

How the results depend on the processing

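Over the other settings tried no result turned its direction while called. Several counts of called genes moved between 0, 1 and 2. With DESeq2 the count became 2 under siFOXA1.2 in RT112 (PKIA and PKIB) and 2 for the pathway lists there. It became 1 in the pooled RT112 comparison (PKIA), for siFOXA1.1 against siFOXA1.2 (PRKACA) and for the control siRNAs (PRKAR1B) in SCaBER, and for both line differences. Without the filter it became 1 in those same comparisons other than siFOXA1.2 in RT112, 2 under siFOXA1.1 in SCaBER (PKIB, adjusted p = 0.0202, beside PRKACA), and 1 for the pathway lists under siFOXA1.2 in SCaBER. With limma on TPM the SCaBER siFOXA1.1 count became 0 (PRKACA, adjusted p = 0.0612) and its pathway count 2. Library totals and TPM moved the median log2 change of all genes under siFOXA1.1 in RT112 to −0.14 and −0.29. The cause of these moves was not tested.

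With the replicate block, 1 gene was called for siFOXA1.1 against siFOXA1.2 in SCaBER (PRKACA) and 1 for the line difference under siFOXA1.1 (PRKAR2A). The block changed no other call of a member.

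When each library was left out in turn, counts of called genes ranged from 5 to 5 for siFOXA1.1 and 0 to 1 for siFOXA1.2 in RT112, 2 to 3 between these siRNAs, 0 to 2 for siFOXA1.1 in SCaBER, 0 to 1 between the SCaBER siFOXA1 siRNAs and between its controls, 4 to 5 between the lines and 0 to 2 for the siFOXA1.1 line difference. Pathway counts ranged from 13 to 23 and 0 to 2 in RT112, and 2 to 6 under siFOXA1.1 in SCaBER. FOXA1 ranged from 16.5 to 34.1% of control in RT112 (exact permutation p = 0.0571, the smallest that 3 against 4 can give) and 10.4 to 33.4% in SCaBER. In those fits a lone library of an siRNA is assumed to vary like the other groups. With 2 libraries per siRNA and line, and PRKAR2B, PKIB and PKIG at few counts, small changes were not detectable at this depth.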
